A study of Homo sapiens with 6 samples.

Results

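The densest run of LSD1 binding in the series lies on chromosome 20, from the end of RAE1 across RBM38 into CTCFL, with BMP7 on its other side. The members are the distinct intervals of 4 chromatin immunoprecipitation (ChIP-seq) peak lists in a window of 600 kb at hg19 chromosome 20, 55700000 to 56300000. There are 321 of them, out of 271093 intervals in all. LSD1 had 69 after DMSO and 74 after the inhibitor, H3K4me2 had 85 and H3K4me1 had 93. The window was chosen by the number of LSD1 peaks with DMSO in the stretch from 55.946 to 56.085 Mb, so that number is a description and carries no test. Genes were placed by spans given to the nearest kb: BMP7 at 55.744 to 55.842 Mb, RAE1 at 55.926 to 55.953, RBM38 at 55.966 to 55.984 and CTCFL at 56.064 to 56.1.

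All libraries came from NCI-H526, an established human small cell lung cancer line that the labels call epithelial. Cells received DMSO, the vehicle, or the compound labelled GSK552. The protocol text, which stands with every sample, gives 1 µM GSK2879552, an inhibitor of LSD1, for 24 hours, and is taken here to describe the GSK552 samples alone. Each group had 1 library, the marks were analysed with DMSO only, and the 2 inputs were not used here. With 1 library a group there is no replicate error and no test between treatments, so every difference is one between single libraries of 1 cell line. The sources used here do not state read depth. The identity of the line was not checked against marker genes.

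LSD1 (KDM1A) is the demethylase that takes methyl groups off H3K4me2 and H3K4me1, usually as part of the CoREST repressor complex. H3K4me1 is the broad mark of enhancers, while H3K4me2 is found at active enhancers and around promoters. BMP7 encodes a secreted ligand of the TGF-beta superfamily. RAE1 acts in messenger RNA export and the mitotic checkpoint. RBM38 is an RNA-binding protein and a p53 target that binds the CDKN1A transcript. CTCFL, also called BORIS, is a germline paralogue of the insulator protein CTCF.

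The promoters shown here are those of the window where LSD1 peaks of both treatments lay within 1 kb of the gene start. The sequences are the 250 bases before the start, from RefSeq on GRCh38.p14, and were not placed on hg19. They are RAE1 at chr20:57351292-57351541 and RBM38 at chr20:57391146-57391395, both on the plus strand, with GC boxes (GGGCGG on either strand) in capitals.
RAE1: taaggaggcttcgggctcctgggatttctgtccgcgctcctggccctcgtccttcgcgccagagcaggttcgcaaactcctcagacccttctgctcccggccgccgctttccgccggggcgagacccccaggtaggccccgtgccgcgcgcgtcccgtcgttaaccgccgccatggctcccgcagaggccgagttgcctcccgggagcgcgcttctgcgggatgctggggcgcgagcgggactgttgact
RBM38: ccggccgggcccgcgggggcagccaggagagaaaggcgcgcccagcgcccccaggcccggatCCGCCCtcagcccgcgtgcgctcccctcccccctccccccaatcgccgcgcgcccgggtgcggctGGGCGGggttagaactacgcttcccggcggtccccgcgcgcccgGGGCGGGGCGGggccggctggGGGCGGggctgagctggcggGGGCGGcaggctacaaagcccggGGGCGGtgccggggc
The RBM38 sequence held 7 GC boxes, counting overlapping ones, and the RAE1 sequence held 0. Of 35116 RefSeq promoter entries of the same length, 42.6% held at least 1 GC box and 1.12% held at least as many as RBM38. CG dinucleotides numbered 35 in RBM38 and 31 in RAE1, against a median of 11. GC content was 82.8% and 70.4%, against a median of 58%. Neither sequence held TATAAA or CANNTG on either strand, which 10.7% and 61.8% of all entries did, and CCAAT was found once, in RBM38 (32.0% of all entries). Of the 4 genes, 3 had an entry, and those of CTCFL were not printed because no peak lay at its start.

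The stretch was covered by H3K4me1 over most of its length, with LSD1 and H3K4me2 each over a smaller part. H3K4me1 lay over 76.8% of the 139 kb, H3K4me2 over 38.8%, LSD1 with DMSO over 36.2% and LSD1 with inhibitor over 38.8%. Together the 4 lists covered 86.4%, and 10.6% was under all 4. The flanks inside the window were sparse. H3K4me1 covered 6.91% of the 246 kb to the left and 11.9% of the 215 kb to the right, and LSD1 with DMSO covered 2.41% and 4.60%.

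**Figure D1:**
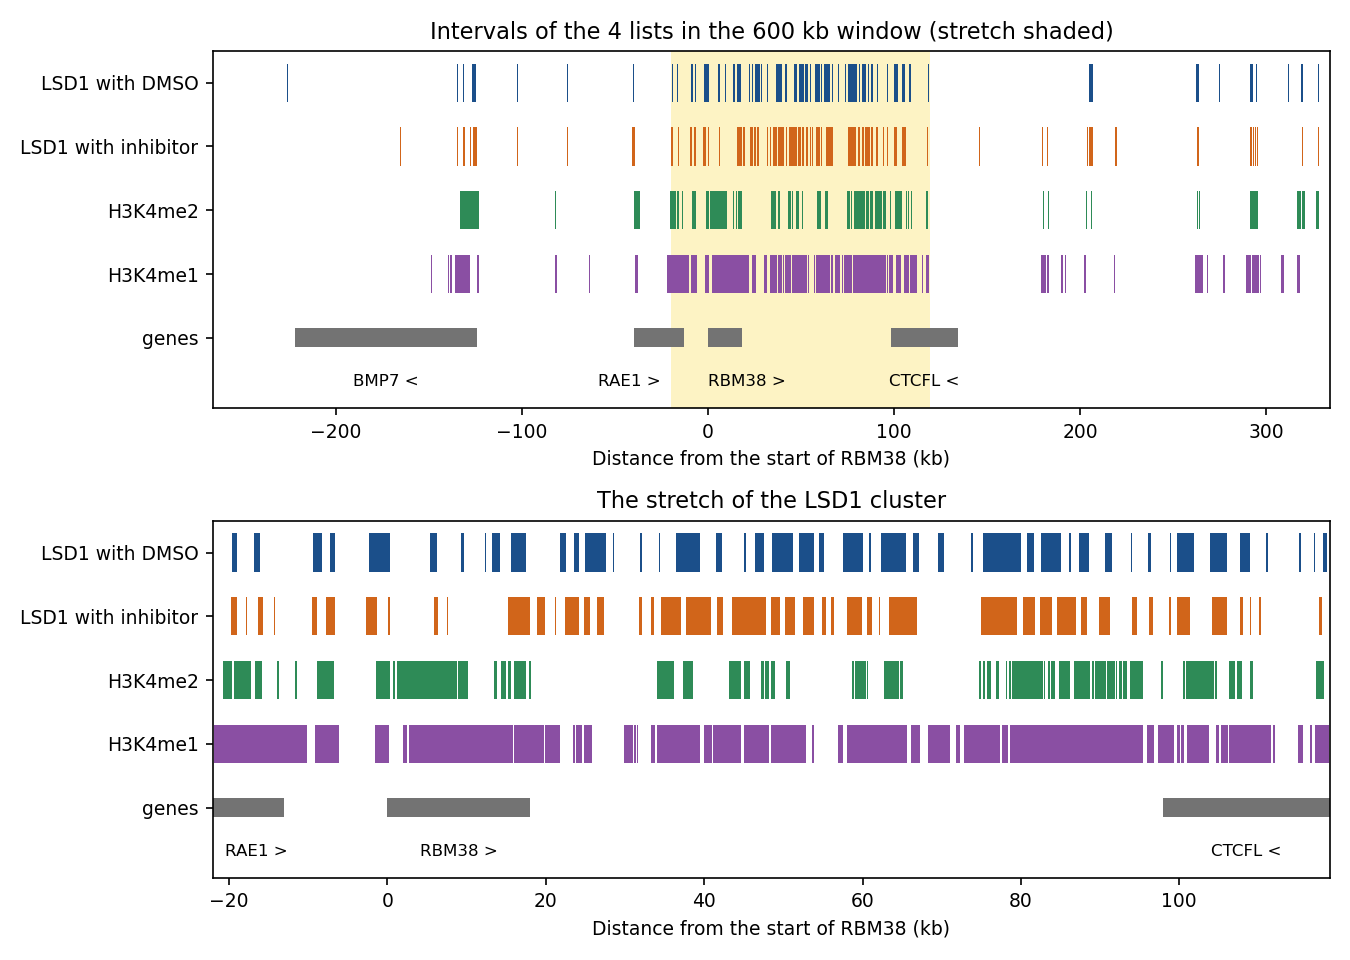
Intervals of the 4 lists against distance from the start of RBM38 in kb, for the whole window (top, stretch shaded) and the stretch (bottom). Each bar is 1 interval drawn to scale, grey bars are genes with an arrow for their direction, and LSD1 is dense from RAE1 to the near end of CTCFL in both treatments and sparse outside.

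Other windows of 139 kb, laid end to end along chromosomes 1 to 22, X and Y, seldom came near these values. None of 22238 had as many LSD1 peaks or as much sequence under LSD1 in either treatment. The next highest reached 28 peaks with DMSO and 27 with inhibitor, against 45 and 46 here, and 17.8% and 17.3% of sequence. For H3K4me1 no other window was covered as much, the highest being 63.5%, while 24 windows held as many intervals. For H3K4me2, 2 windows were covered as much and 2 held as many intervals, the highest coverage being 59.8%. The stretch was chosen by its number of LSD1 peaks with DMSO, so its lead in LSD1 is a description and carries no test. It was also placed around its peaks and the other windows were not, which favours the stretch.

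**Figure D2:**
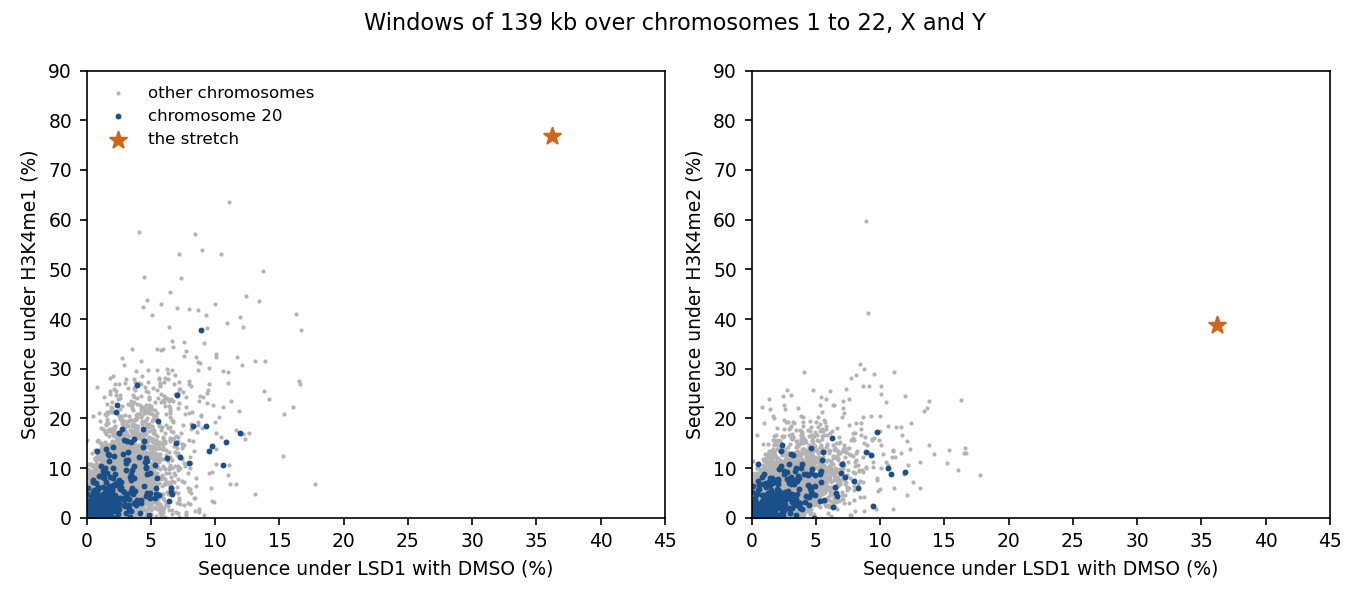
Share of sequence under LSD1 with DMSO (x axis, %) against that under H3K4me1 (left) or H3K4me2 (right, %), with 1 point for each window of 139 kb. The star is the stretch, at 36.2% LSD1, 76.8% H3K4me1 and 38.8% H3K4me2, to the right of all other windows. The stretch was chosen by its LSD1 peaks with DMSO.

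LSD1 peaks here touched H3K4me1 more often than LSD1 peaks did in the lists as a whole. With DMSO, 40 of the 45 peaks of the stretch overlapped H3K4me1 by at least 1 bp (88.9%, exact Clopper-Pearson 95% interval 75.9 to 96.3%), against 41.5% of the whole list. With inhibitor it was 42 of 46 (91.3%, 79.2 to 97.6%), against 39.5%. H3K4me2 was overlapped by 27 of 45 peaks with DMSO (60.0%, 44.3 to 74.3%), against 50.4%, and by 29 of 46 with inhibitor (63.0%, 47.5 to 76.8%), against 52.9%. For H3K4me2 both confidence intervals include the share of the whole list, and for H3K4me1 neither does. These confidence intervals hold counting error alone, and peaks so close together are not independent draws. The shares describe contact and not equal extent. When 50% of both intervals had to overlap, 5 of 45 DMSO peaks matched H3K4me1 (11.1%, 3.71 to 24.1%), against 8.23% of the list, and 9 of 46 inhibitor peaks did (19.6%, 9.36 to 33.9%), against 6.36%. H3K4me2 was then matched by 13.3% and 15.2%, against 14.2% and 13.5%. So under that rule the DMSO share on H3K4me1 was not distinguishable from its list by counting error.

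Every LSD1 peak of the stretch on H3K4me2 was also on H3K4me1. Both marks were found at 27 DMSO peaks and 29 inhibitor peaks, shares of 60.0% and 63.0% against 31.7% and 30.0% of the whole lists. H3K4me2 without H3K4me1 was found at 0 of 45 peaks with DMSO (0 to 7.87%), against 18.7% of the whole list. With inhibitor it was found at 0 of 46 (0 to 7.71%), against 22.9%. In the stretch 60 of 61 H3K4me2 intervals overlapped H3K4me1, and the exception, at 55966717 to 55966966, met no LSD1 peak. The counts of 0 were thus nearly fixed by the marks and are not a trait of the LSD1 peaks. H3K4me1 alone was found at 13 peaks of each list (28.9% and 28.3%, against 9.84% and 9.49%). Neither mark was found at 5 and 4 peaks (11.1% and 8.70%, against 39.8% and 37.6%). Outside the stretch but inside the window the makeup was different: with DMSO, 13 of 24 peaks had neither mark, 4 had H3K4me2 alone and 1 had H3K4me1 alone. With inhibitor these numbers were 10, 4 and 4 of 28.

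Summits of the histone intervals, which are local high points, also fell under LSD1 peaks. All summits were counted, and a wide histone interval can hold many. A wide LSD1 peak also holds a summit more easily, and the part of width was not tested. With DMSO, 26 of 45 peaks held an H3K4me2 summit (57.8%, 42.2 to 72.3%), against 39.3% of the list, and 32 held an H3K4me1 summit (71.1%, 55.7 to 83.6%), against 28.7%. With inhibitor, 22 of 46 held an H3K4me2 summit (47.8%, 32.9 to 63.1%), against 39.4%, and 35 an H3K4me1 summit (76.1%, 61.2 to 87.4%), against 25.4%. For H3K4me1 the share of the list lay below both confidence intervals, and for H3K4me2 it lay below the first and inside the second.

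Counted by sequence in place of peaks, the marks separated again. In the stretch 83.0% of the sequence under LSD1 with DMSO was under H3K4me1, against 33.3% over the whole list, and 45.2% was under H3K4me2, against 45.9%. With inhibitor 83.3% was under H3K4me1, against 31.5%, and 45.9% under H3K4me2, against 50.04%. H3K4me1 covered 76.8% of all sequence in the stretch, that under LSD1 included. The sequence under LSD1 was thus only a little more often under H3K4me1 than the stretch as a whole. Likewise 45.2% for H3K4me2 compares with 38.8% of the stretch. The LSD1 lists met each other more closely: 67.9% of the DMSO sequence was also under inhibitor peaks, which covered 38.8% of the stretch.

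**Figure D3:**
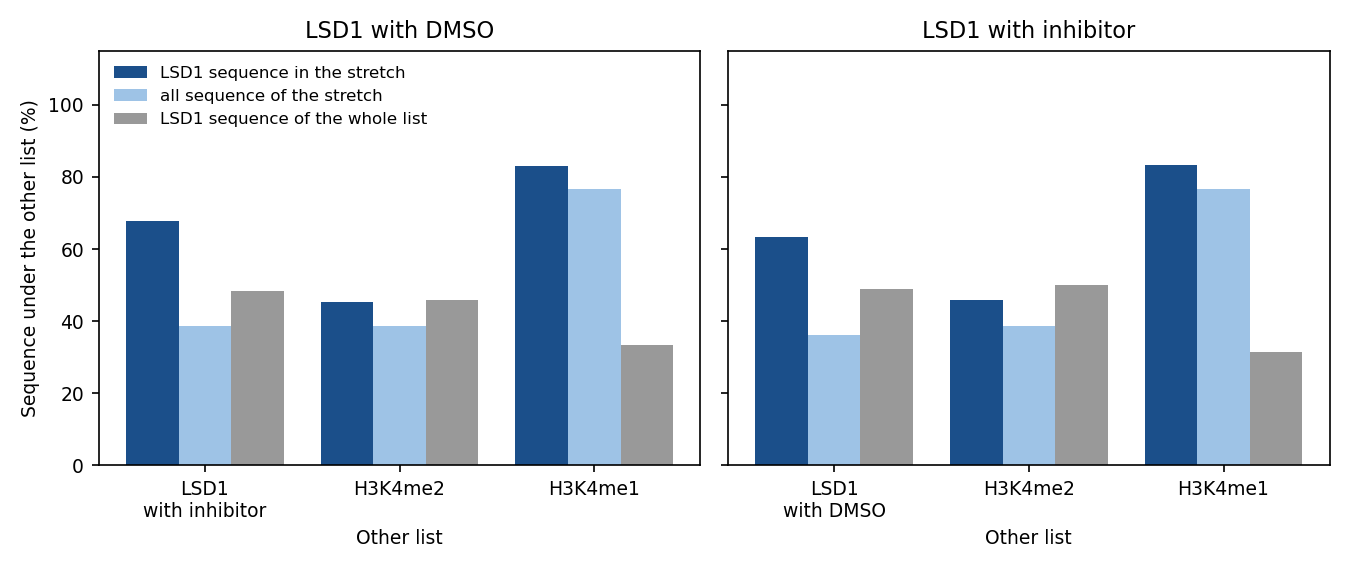
Percent of LSD1 sequence that is under each other list, for LSD1 with DMSO (left) and with inhibitor (right). Dark bars are LSD1 sequence in the stretch, pale bars all sequence of the stretch and grey bars LSD1 sequence of the whole list; H3K4me1 is near 83% in the stretch against 33.3% and 31.5% over the whole lists.

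The histone intervals of the stretch carried LSD1 more often than those of the whole lists. The stretch was chosen by its LSD1 peaks with DMSO, so these LSD1 shares are a description and carry no test. LSD1 with DMSO overlapped 41 of 61 H3K4me2 intervals (67.2%, 54.0 to 78.7%), against 35.4% of all, and 32 of 44 H3K4me1 intervals (72.7%, 57.2 to 85.0%), against 23.7%. With inhibitor the counts were 44 of 61 (72.1%), against 40.8%, and 33 of 44 (75.0%), against 23.8%. Of the 61 H3K4me2 intervals, 60 overlapped H3K4me1 (98.4%, 91.2 to 99.96%), against 63.1%. Conversely 23 of 44 H3K4me1 intervals overlapped H3K4me2 (52.3%), against 47.4%.

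H3K4me1 intervals and LSD1 peaks of the stretch were also wide more often than in their lists. Of 44 H3K4me1 intervals, 17 were 2 kb or more (38.6%, 24.4 to 54.5%), against 6.33% of the list. For LSD1 it was 10 of 45 with DMSO (22.2%, 11.2 to 37.1%), against 2.68%, and 7 of 46 with inhibitor (15.2%, 6.34 to 28.9%), against 2.30%. For H3K4me2 it was 7 of 61 (11.5%, 4.74 to 22.2%), which includes the 7.27% of the list. A wide interval is overlapped more easily under the 1 bp rule, and the part of width in the shares above was not tested.

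The background implied by the caller's values was also higher here. A background level was computed for every peak from its fold and its p-value, and divided by the median of its list. In the stretch its median was 1.66 for LSD1 after DMSO, 1.85 after inhibitor, 1.56 for H3K4me2 and 1.87 for H3K4me1. Over all of chromosome 20 the medians were 1.23, 1.37, 1.15 and 1.40. More than 2 times the list median was reached by 31.1%, 34.8%, 34.4% and 29.5% of the intervals of the stretch, against 7.98%, 9.02%, 9.72% and 8.04% of the lists. Its part in the number of intervals was not tested.

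Fold enrichment and −log10 q below were taken from the authors' files, and a percentile is the place of a peak's q value in its own list, with 100 the strongest. By fold the LSD1 peaks of the stretch were near or below their lists, and by width above them. Their median widths were 748 bp with DMSO and 741.5 bp with inhibitor, against 471 and 388 bp for the lists. Their median fold was 3.60 with DMSO and 3.58 with inhibitor, against 3.61 and 3.91 for the lists. Their median percentiles were 63.1 and 62.1. The top 10% of the list held 3 of the 45 DMSO peaks and 9 of the 46 inhibitor peaks. H3K4me1 was different, since 21 of its 44 intervals were in the top 10% and their median percentile was 85.3. H3K4me2 had 6 of 61 there, and a median percentile of 52.1. A histone interval took the score of its highest-scoring summit, and wide ones can hold many, while LSD1 peaks were not split by summit. The part of this in the H3K4me1 percentiles was not tested.

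Peaks within the stretch followed each other at a median gap of 1.82 kb with DMSO, from 0.699 to 6.73 kb, and 1.12 kb with inhibitor, from 0.577 to 8.05 kb. The gap on the left was 20.2 kb with DMSO and 19.7 kb with inhibitor, and that on the right 27.8 and 27.4 kb. The outermost DMSO peaks inside had folds of 4.87 on the left and 3.27 on the right. The first ones outside had folds of 3.10 and 3.21. Joined over gaps of up to 10 kb, the 45 DMSO and 46 inhibitor peaks each formed 1 cluster, and the next largest clusters held 22 peaks in either list. Joined over gaps of up to 5 kb, the largest cluster held 40 DMSO peaks but 21 inhibitor peaks, and the next largest 17 and 14. Over gaps of up to 20 kb it held 45 and 47, and the next largest 37 and 45, so the lead in number was small at that setting.

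**Figure D4:**
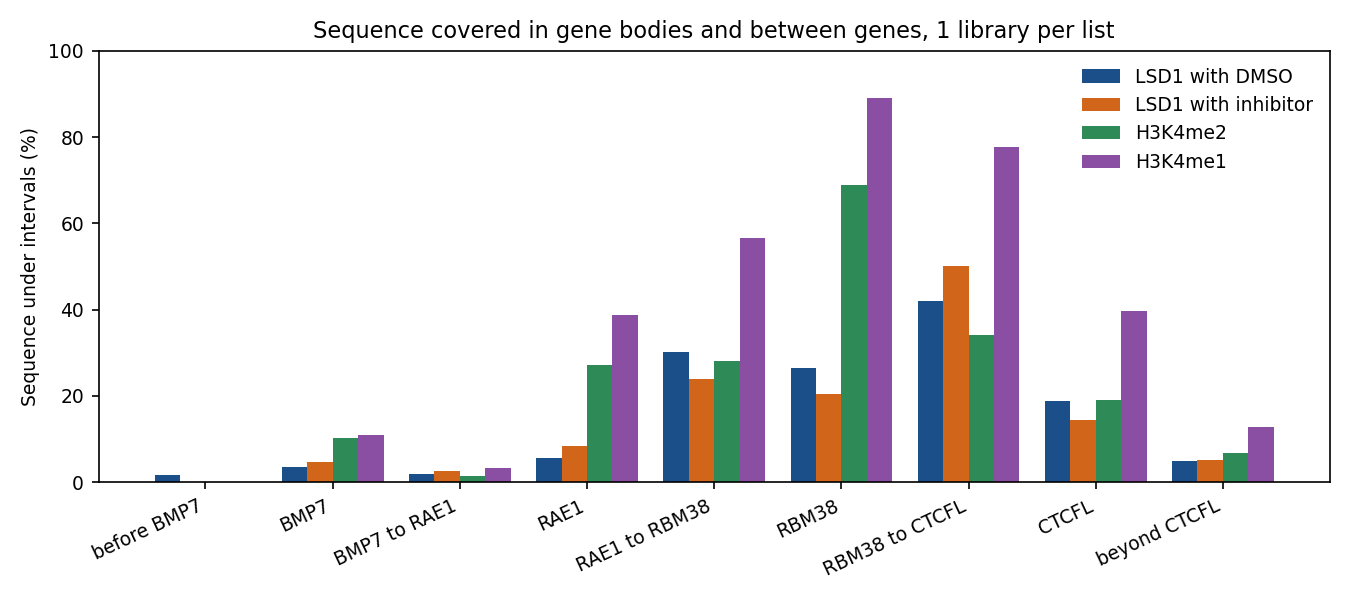
Percent of sequence under each of the 4 lists in the 4 gene bodies and the sequence between them. Bars start at 0 and stand for 1 library each; H3K4me1 reached 88.9% in RBM38 and 77.7% between RBM38 and CTCFL, and LSD1 was highest between those genes, at 42.0% with DMSO and 50.2% with inhibitor.

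RBM38, the RNA-binding protein gene, had the highest coverage of the 4 genes for each of the lists, though its LSD1 coverage was below that of the sequence between RBM38 and CTCFL. H3K4me1 covered 88.9% and H3K4me2 68.8% of its 18 kb. LSD1 covered 26.5% with DMSO, in 5 peaks, and 20.4% with inhibitor, in 4. Behind the gene start lay an H3K4me2 interval of 7623 bp, at 55967199 to 55974821, with 24 summits. It ranked 101 by score among 81619 and 27 by width, and only 11.9% of it was under LSD1 with DMSO and 8.95% with inhibitor. H3K4me1 lay from 55968685 to 55981874, an interval of 13190 bp that ranked 371 of 94689 by score and 16 by width, with 21.2% and 9.83% under LSD1.

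At the start of RBM38 itself LSD1 was present in both libraries. With DMSO a peak of 2586 bp at 55963708 to 55966293 reached the start (fold 3.78, percentile 66.8). With inhibitor 2 peaks overlapped it, at 55963330 to 55964675 (fold 3.64) and 55966119 to 55966373 (fold 3.79), so that the sequence between was under LSD1 with DMSO only. Both marks lay on the upstream side, H3K4me2 at 55964588 to 55966271 with a fold of 11.7 and H3K4me1 at 55964483 to 55966241 with a fold of 18.5 and rank 215. The H3K4me1 interval was wholly under LSD1 with DMSO and for 18.0% with inhibitor. In the gene body 3 DMSO peaks had no inhibitor partner. They lay at 55975301 to 55975713, 55978301 to 55978465 and 55979246 to 55980246, with percentiles of 0.466, 42.3 and 27.6. An inhibitor-only peak at 55973534 to 55973694 had a percentile of 63.4.

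The 80 kb between RBM38 and CTCFL held most of the cluster, with 27 DMSO and 28 inhibitor peaks, 33.8 and 35.0 for each 100 kb. The whole stretch of 139 kb held 32.4 and 33.1 for each 100 kb, so peaks were about as dense here as over the stretch. The widest LSD1 peak of the window lay here in both lists. It was 4783 bp with DMSO, at 56041168 to 56045950 (fold 3.95, width rank 25 of 45188), and 4466 bp with inhibitor, at 56040989 to 56045454 (fold 4.33, width rank 24 of 49597). Within it began an H3K4me1 interval of 16890 bp, at 56044564 to 56061453, the 4th widest of its list and 21st by score, with a fold of 26.2 and 48 summits. It overlapped 16 H3K4me2 intervals and 7 LSD1 peaks of each treatment, that widest peak included, which covered 43.6% of it with DMSO and 54.2% with inhibitor. An H3K4me2 interval at 56028652 to 56030634 (fold 14.9) lay wholly under LSD1 with DMSO and for 65.7% with inhibitor. Another at 56044844 to 56048803 was under LSD1 for 57.1% and 62.2%. Those next by fold, at 56000009 to 56002197 (fold 12.8) and 56055386 to 56056690 (fold 11.0), differed more between the treatments. They were under LSD1 for 6.99% and 9.50% with DMSO, and for 73.3% and 58.8% with inhibitor. The wide RBM38 interval had 11.9% with DMSO and 8.95% with inhibitor, so with DMSO the strong intervals here lay on either side of it.

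RAE1, the messenger RNA export gene, carried LSD1 at its start and, separately, in the far end that lies in the stretch. Its start carried H3K4me2 at 55926020 to 55928654 (fold 19.2, rank 1843) and an LSD1 peak in both lists, at 55925553 to 55926161 with DMSO (fold 3.10) and 55925106 to 55926467 with inhibitor (fold 3.45). Those LSD1 peaks overlapped H3K4me2 without H3K4me1, unlike any peak of the stretch. The far end of the gene lay in the stretch and under an H3K4me1 interval of 8915 bp at 55944105 to 55953019, which ranked 56 by score. It held the third strongest LSD1 peak of the window with DMSO, at 55946359 to 55946958 (fold 4.87, percentile 97.7), and the second with inhibitor, at 55946215 to 55946975 (fold 5.55, percentile 97.4). Between RAE1 and RBM38, a peak at 55956638 to 55957709 had a fold of 3.63 and percentile of 58.6 with DMSO, and its partner at 55956444 to 55957085 a fold of 5.65 and percentile of 95.8 with inhibitor.

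CTCFL, the CTCF paralogue, is read toward RBM38, and its LSD1 peaks lay toward its end, with none at its start. No interval of any list lay within 1 kb of the start. The nearest LSD1 peaks were 12.5 kb away with DMSO and 11.5 kb with inhibitor, both beyond the gene, and the nearest H3K4me1 was 15.1 kb away within it. The body held 8 DMSO and 7 inhibitor peaks. Its strongest peak was the strongest of the whole stretch with DMSO, at 56065733 to 56067798, with a fold of 6.07, a −log10 q of 10.2 and rank 535. With inhibitor it lay at 56065676 to 56067358 with a fold of 5.70. In both lists this peak overlapped an H3K4me2 interval at 56066864 to 56070412 with a fold of 22.2, which ranked 180 of its list. That interval was under LSD1 for 39.8% with DMSO and 22.9% with inhibitor, in each case from this peak and the next one.

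BMP7, the secreted ligand, carried H3K4me2 at its start, apart from the cluster, with an LSD1 peak within 1 kb of the start for the inhibitor only. H3K4me2 covered the start at 55840111 to 55842675 (fold 11.6) and continued into the gene at 55833735 to 55840051, an interval of 6317 bp that ranked 76 by width. H3K4me1 at the start was a weak interval of 596 bp with a fold of 2.99, while deeper in the gene it lay at 55832491 to 55838135 with a fold of 15.4 and rank 677. An LSD1 peak at 55839249 to 55840985 with DMSO (fold 3.59, percentile 63.6) had a partner at 55839528 to 55841972 with inhibitor (fold 3.14, percentile 19.1). The DMSO peak ended 1.015 kb from the start, just outside that limit, and the inhibitor peak 0.028 kb from it, with the start known to the nearest kb only. Both overlapped H3K4me2 without H3K4me1. In all the body held 5 DMSO and 7 inhibitor peaks over 98 kb, 5.10 and 7.14 for each 100 kb. The strongest of these was with inhibitor only, at 55838268 to 55838540, with a fold of 5.43, a −log10 q of 7.60 and both marks.

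Most LSD1 peaks of the stretch were found in both treatments. Of the 45 DMSO peaks, 34 were overlapped by an inhibitor peak (75.6%, 60.5 to 87.1%), against 63.2% of the whole list. Of the 46 inhibitor peaks, 36 were overlapped by a DMSO peak (78.3%, 63.6 to 89.1%), against 58.1%. The first confidence interval includes the value of its list, and the second lies above it. The stretch was chosen by its LSD1 peaks with DMSO, which favours overlap with them. These shares are therefore a description and carry no test. With a reciprocal overlap of 50% the shares were 35.6% (21.9 to 51.2%), against 33.3% of the list, and 34.8% (21.4 to 50.2%), against 30.4%, and both confidence intervals included the list. Partners often differed in extent: 21 pairs matched as 1 peak to 1, while 6 DMSO peaks spanned more than 1 inhibitor peak and 4 inhibitor peaks more than 1 DMSO peak. Of the 21 pairs, 11 were wider with inhibitor and 11 had a higher percentile there, with median percentiles of 63.1 with DMSO and 65.8 with inhibitor. The highest-placed inhibitor peaks between RBM38 and CTCFL, at 56048397 to 56049933 (percentile 96.2) and 56016241 to 56017458 (96.0), overlapped wider DMSO peaks of percentiles 76.8 and 83.6. Large changes also went the other way. In RAE1 the DMSO peak at 55949164 to 55949907 had a percentile of 78.9 and its inhibitor partner 7.05. In RBM38 the DMSO peak at 55971398 to 55972302 had 67.1 and its partner 0.277.

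Peaks of 1 treatment alone were mostly narrow. The 11 DMSO-only peaks had a median width of 215 bp and a median percentile of 28.7, against 896 bp and 67.1 for the 34 shared ones. The 10 inhibitor-only peaks had 204.5 bp and 5.67, against 1131.5 bp and 69.5 for the 36 shared ones. Of peaks of 1 kb or more, 16 of 17 with DMSO and 19 of 19 with inhibitor were shared, and of narrower ones 18 of 28 and 17 of 27. Over the whole lists 92.0% and 88.9% of peaks of 1 kb or more were shared, and 57.3% and 52.9% of narrower ones, so the difference by width was a feature of both lists. The strongest DMSO-only peaks were at 56082957 to 56083118 in CTCFL (fold 4.67, percentile 83.9, neither mark) and 56039748 to 56039922 (fold 3.98, percentile 77.8, H3K4me1 alone). The strongest inhibitor-only peaks were the one in RBM38 above and one at 56083592 to 56084082 in CTCFL (fold 4.10, percentile 56.0, both marks). A DMSO peak at 56084095 to 56084668 began just beyond the latter without overlapping it, so the 2 lists differ there in position and not in having a peak.

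**Figure D5:**
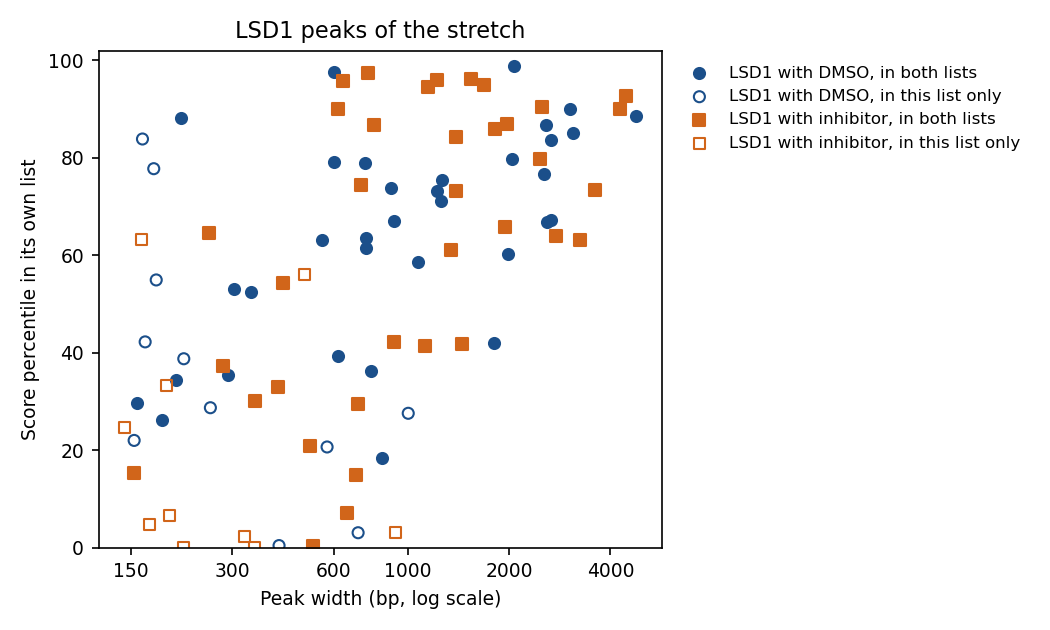
Width in bp (x axis, log scale) against score percentile in its own list for the LSD1 peaks of the stretch. Filled points are peaks overlapped by a peak of the other treatment and open points are not; 16 of 17 DMSO and 19 of 19 inhibitor peaks of 1 kb or more are filled.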

How the data were processed

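The authors' deposited files are peak lists of 1 library each, on hg19. Per the submitters' processing notes the tools were BWA, Picard and MACS2 2.0; the control, duplicates and depth were not stated. The deposited score is 10 times −log10 q, the deposited fold is the ratio of a peak to the caller's background, and the deposited −log10 columns hold p and q values. LSD1 lists have a broad layout and reach −log10 q of 1.00 and 1.01, while histone lists are narrow and stop at 2.02 and 2.01, so the LSD1 lists hold weaker peaks.

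Histone rows, 1 per summit, were reduced to distinct intervals with the values of the highest-scoring row. Overlap was 1 bp or more. Intervals were assigned to genes by their centre. The implied background is the Poisson mean that gives a peak's fold, with a pseudocount of 1, its p-value; means under 0.8 were not resolved. The overlap search was tested on simulated intervals. The background was tested on values simulated with the same formula and pseudocount. That checks the code and not whether the formula suits these lists. Gene spans are rounded to 1 kb, and no coordinates were converted. The members and lists were chosen with earlier results of these data known. The intervals named were the 5 highest-scoring LSD1 peaks of each list, the highest-scoring interval of each list per gene and gap, those within 1 kb of a start, the widest, and up to 5 peaks of 1 treatment alone; leading ones are given, and wide histone intervals were added after their values were seen. Alternatives were a 50% reciprocal overlap, centres, the highest-scoring 50%, LSD1 at −log10 q of 2 or more, equal LSD1 lists of 45188 peaks, and joining gaps. Python 3.11.15, numpy 2.4.6, pandas 2.3.3, scipy 1.17.1 and matplotlib 3.10.9 were used.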

Additional observations from a re-analysis of the deposited data

How the results depend on the processing

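No paired analysis was possible because the groups hold 1 library each. Of 50 alternative values, 30 stayed within the counting interval of the main value or within 1.5 times of a count, and 20 moved; the cause was not tested. The definition of overlap moved most. With a reciprocal overlap of 50%, DMSO peaks were shared in 35.6% and inhibitor peaks in 34.8% of cases, H3K4me2 was matched by 13.3% of DMSO and 15.2% of inhibitor peaks and H3K4me1 by 11.1% and 19.6%, and LSD1 with DMSO by 9.84% of H3K4me2 and 11.4% of H3K4me1 intervals. By centres the same shares were 53.3% and 60.9%, 40.0% and 39.1% for H3K4me2, 78.3% for inhibitor peaks on H3K4me1, and 45.9% and 36.4% of the histone intervals. With LSD1 lists of equal length, 89.5% of inhibitor peaks were shared. Shares of the whole lists were not computed for centres, for equal lists or for the reciprocal overlap of histone intervals. Those values therefore do not show whether the stretch differed from the lists. The highest-scoring 50% left 29 DMSO and 26 inhibitor peaks in the stretch, and −log10 q of 2 or more left 29 with DMSO. With joining gaps of up to 5 kb the largest inhibitor cluster held 21 peaks. Depth is unknown, so a missing weak peak is not shown to be absent.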

Other observations

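Beyond CTCFL the last 200 kb of the window held 13 LSD1 peaks with DMSO and 16 with inhibitor, among them the highest-scoring LSD1 peak of the window in both lists. It lay at 56228245 to 56229641 with DMSO (fold 5.82, rank 431) and at 56228557 to 56229610 with inhibitor (fold 6.38, rank 241), and overlapped both marks. Further on, a site with both marks, at 56257038 to 56258604 with DMSO (fold 4.93, percentile 94.1), had a partner at 56257311 to 56258042 with inhibitor (fold 4.72, percentile 90.9). Both overlapped the far end of H3K4me1 at 56254954 to 56257904 (fold 12.2, rank 2261). They also reached the near end of H3K4me1 at 56258003 to 56262191 (fold 17.6, rank 387). Another, at 56170375 to 56172707 with DMSO (2333 bp, fold 4.11) and 56170671 to 56172642 with inhibitor (fold 3.56), overlapped H3K4me2 without H3K4me1. A strong H3K4me2 interval at 56282459 to 56284309 (fold 14.6) had no LSD1 peak of either treatment. These sites were not placed relative to genes here.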
